A study of Arabidopsis thaliana with 35 samples.

Results

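NGA1, NGA2, NGA3 and NGA4, STY1 and STY2, SPT, HEC1 and HEC2, and CRC encode transcription factors of carpel and style development. They were taken by their AGI identifiers as a set of 10 out of the 28775 genes in the count table, and all 10 were among the 21115 genes that passed a filter on low counts and were tested. Transcript levels were measured by RNA-seq in 35 libraries made from seedling shoot tissue of Arabidopsis thaliana that held the apical and axillary meristems, after cotyledons, true leaves and roots had been dissected away. Plants lacking both CLF and SWN (alleles clf-29 and swn-3, here clf swn or cs), picked out among the offspring of clf/+ swn/- parents, were set against wild type of the accession Col-0 (WT). Plants were 14 days old when treatment began. The groups of each genotype were untreated tissue (cs-ctrl with 6 libraries, WT-ctrl with 5, in a pair of sets that share replicate numbers) and tissue taken after 55 h of mock treatment with the solvent DMSO (cs-M, WT-M), of 5 µM of the synthetic auxin 2,4-D (cs-A, WT-A), of wounding (cs-W, WT-W), or of wounding combined with 2,4-D (cs-WA, WT-WA), each with 3 libraries. Wounding was a cut through the hypocotyl that separated the shoot from the root, and unwounded seedlings were treated whole. The comparisons ask how levels of these genes differ between clf swn and WT in each condition, and how they change with auxin and wounding in either genotype.

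The gynoecium, the female organ of the flower, is built from carpels and carries the style and stigma at its top. The B3-domain factors NGA1 to NGA4 (NGATHA) act redundantly in making the style and stigma, together with STY1 and STY2, RING-like zinc finger factors of the SHI/STY family that promote auxin synthesis in the apical gynoecium. The bHLH factor SPT and its partners HEC1 and HEC2 are needed for tissues of the carpel margin, the stigma and the transmitting tract, and the YABBY factor CRC for carpel growth, carpel fusion and nectaries. CLF and SWN are alternative catalytic subunits of Polycomb repressive complex 2, which sets the repressive histone mark H3K27me3 on many developmental regulators.

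In the RefSeq annotation of TAIR10.1, the 4 NGATHA genes lie on 4 chromosomes: NGA1 (AT2G46870) at chr2:19260906-19262533 on the plus strand, NGA2 (AT3G61970) at chr3:22951323-22953265 on the plus strand, NGA3 (AT1G01030) at chr1:11649-13714 on the minus strand and NGA4 (AT4G01500) at chr4:639247-640976 on the plus strand. STY1 (AT3G51060) lies at chr3:18964129-18966405 on the plus strand and STY2 (AT4G36260) at chr4:17155556-17157645 on the minus strand. SPT (AT4G36930) lies at chr4:17414083-17416386 on the plus strand, HEC1 (AT5G67060) at chr5:26765992-26767257 on the plus strand and HEC2 (AT3G50330) at chr3:18656955-18658377 on the minus strand. CRC (AT1G69180) lies at chr1:26007350-26009141 on the minus strand. SPT and CRC have 7 exon blocks each, NGA3, NGA4, STY1 and STY2 have 2 each, and NGA1, NGA2, HEC1 and HEC2 have 1 each. Reads were assigned by unique alignment to whole genes. Few stretches of these genes could have lost reads to a copy: 50-base words that recur elsewhere in the genome made up 0.887% of NGA1, 0.739% of NGA2, 0.226% of STY1 and 0% of the other members, and 1.68% of the CRC exon length is shared with the neighbour AT1G69170.

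The 300 bases before each annotated start were compared among the members, to see whether genes whose levels are set side by side here also share upstream sequence. Of the 45 pairs, 4 shared an identical run of 16 bases or more, and the longest run of each other pair was 7 to 12 bases. The runs of STY1 with STY2 and of STY2 with CRC, 16 bases each, were low in complexity. The other runs joined paralogs within the NGATHA family, NGA1 with NGA2 by 20 bases and NGA3 with NGA4 by 19 bases. They are printed 5′ to 3′ on the strand of the gene, with the shared run in capitals, from chr2:19260614-19260693 (plus), chr3:22951023-22951072 (plus), chr1:13715-13777 (minus) and chr4:639101-639179 (plus) of TAIR10.1:
NGA1: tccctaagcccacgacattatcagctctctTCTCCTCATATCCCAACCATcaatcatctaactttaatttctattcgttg
NGA2: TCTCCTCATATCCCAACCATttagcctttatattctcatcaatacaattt
NGA3: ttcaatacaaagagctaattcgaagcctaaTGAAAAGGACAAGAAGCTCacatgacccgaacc
NGA4: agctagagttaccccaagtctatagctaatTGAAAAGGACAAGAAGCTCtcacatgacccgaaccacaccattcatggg
The NGA1 run begins 262 bases before the start and the NGA2 run 300, whereas the NGA3 run begins 33 bases before it and the NGA4 run 116. The NGA2 run thus starts at the edge of the window and could extend beyond it. Only unbroken identical runs were compared, so likeness across gaps or mismatches was not measured for any pair. Short motifs were also searched for in these windows, on both strands. TGTCTC, the core of the auxin response element, and CACGTG, the G-box, were each found in SPT alone, 192 and 187 bases before the start and overlapping by 1 base. They occur in 13% and 7.07% of 28008 promoters of the same length. GAGAGAGA was found in NGA4 alone, against 5.71% of promoters. AAACCCTA (in 5.27% of promoters) and ACTCTAC (in 2.2%) were found in 0 of the 10.

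Libraries held 11375703 to 18094983 counted reads, with a median of 14665511. Levels are given as CPM, the counts of a gene scaled to the same total of counted reads in every library, and 3 counts in a library correspond to 0.166 to 0.264 CPM. The mutated genes followed the labels: CLF lay between 0.775 and 1.92 CPM in all 18 libraries of clf swn and between 29.5 and 55.6 CPM in all 17 of WT, and SWN at 18.7 to 33.3 CPM in clf swn and 39.6 to 68.7 CPM in WT. The meristem gene STM was detected at 77.2 to 144 CPM in clf swn and 62.9 to 125 CPM in WT, whereas CLV3, which marks stem cells of the shoot meristem, reached at most 0.527 CPM and was at 0 in WT-A and WT-WA, as was WUS in WT-WA. A contrast was called where its adjusted p was under 0.05 (edgeR's quasi-likelihood test, Benjamini-Hochberg adjusted over all tested genes) and its log2 fold change was at least 0.6 in size. Errors of fold changes are standard errors.

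Every member was higher in clf swn than in WT in untreated tissue. CRC, HEC1, HEC2 and NGA4, which were near the detection limit in WT, differed most, and NGA2 and STY1 least. All 10 were called higher in cs-ctrl than in WT-ctrl, where 13.6% of all tested genes were, with a median log2 difference of 2.11 over the members and 0 over all tested genes. After mock treatment, 10 of 10 were called higher in cs-M than in WT-M (all genes 14.4%; median over members 1.98), as were 10 of 10 in cs-A against WT-A (all genes 23.5%; median 3.06) and 10 of 10 in cs-W against WT-W (all genes 14.8%; median 2.98). In cs-WA against WT-WA, 9 of 10 were called higher (all genes 23.4%; median 3.42), and STY1 was not. No member was called lower in clf swn in any condition (all genes 20.4% in untreated tissue, 17.1% after mock, 22.8% after 2,4-D, 16.5% after wounding and 19.8% after the combined treatment). In each of these 5 comparisons every member was higher in clf swn within 3 of 3 replicate numbers, which mark material prepared and sequenced together. For untreated tissue, libraries of both sets with the same number were averaged first. The tests counted libraries of both sets as independent, and the sets stood apart for some members. In cs-ctrl every library of the first set was above every library of the second for HEC1 (at least 7.21 against at most 6.29 CPM). The same held for SPT (54.3 against 52.7 CPM), and STY2 went narrowly the other way (37.4 against 37.5 CPM). In WT-ctrl the first set was above the second for STY2 and CRC, and below it for STY1 (at most 7.71 against at least 9.93 CPM). Within the second set alone, STY1 was lower in clf swn in replicate 2 (10.3 CPM in cs-ctrl, 13.2 CPM in WT-ctrl).

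**Figure D1:**
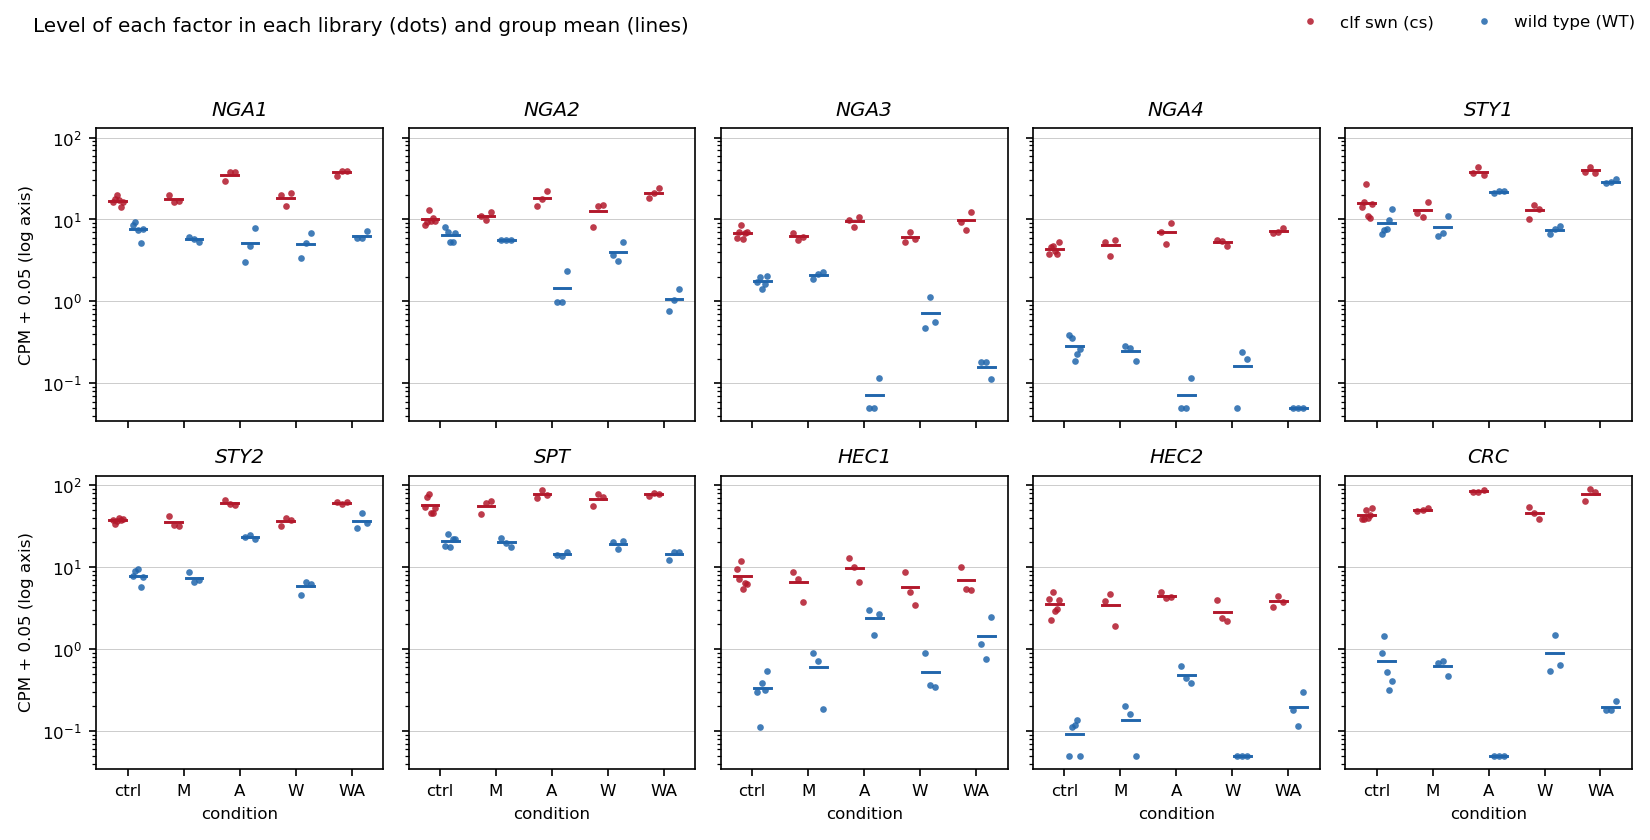
Level of each of the 10 genes in every library, as CPM + 0.05 on a log axis, by condition, with clf swn (red) left of WT (blue); points are libraries and lines are group means. For 7 genes every clf swn library lies above every WT library, whereas NGA2 spans 7.96 to 23.9 CPM in clf swn and 0.724 to 8.13 CPM in WT, STY1 spans 10.1 to 44.1 CPM in clf swn and 6.18 to 30.7 CPM in WT, and STY2 31.3 to 65.1 CPM in clf swn and 4.47 to 45.9 CPM in WT.

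**Figure D2:**
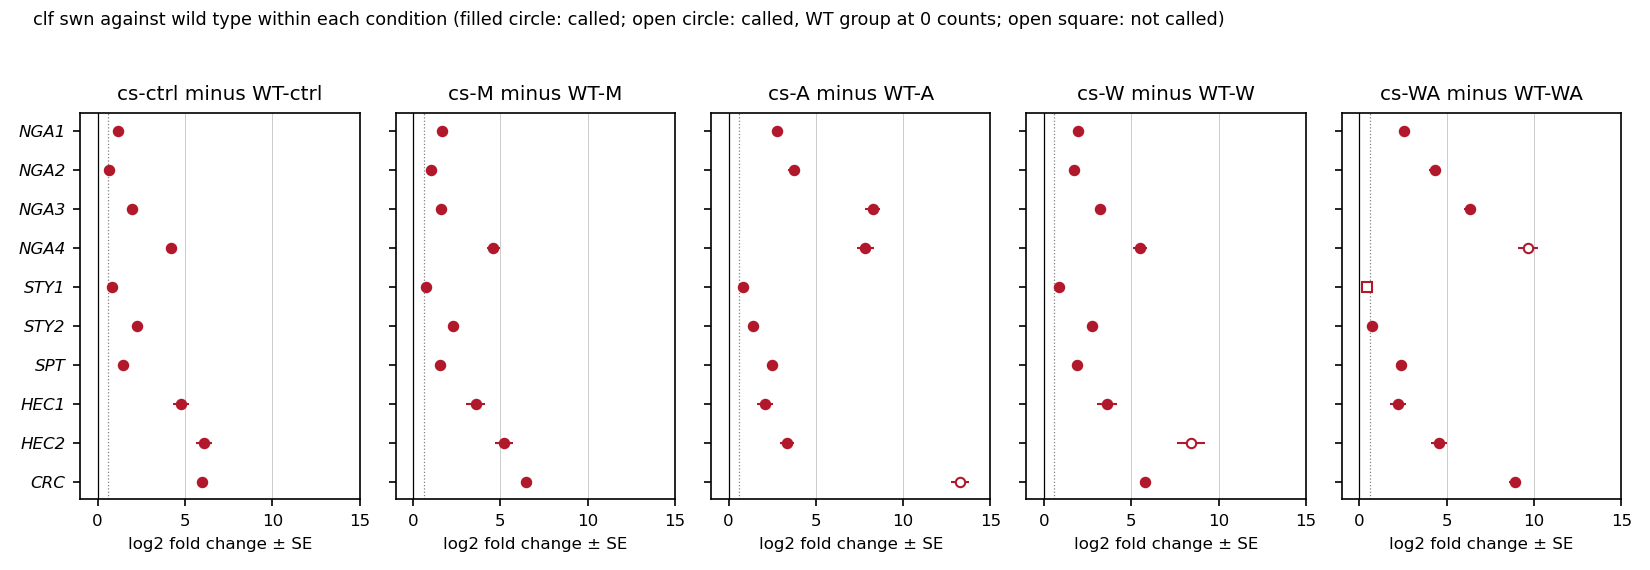
Log2 difference between clf swn and WT (clf swn minus WT) of each gene in each of the 5 conditions, with standard errors; open circles mark a WT group at 0 counts, whose fitted value is no measured fold, and the open square a gene that was not called. Every value lies above 0, and in the combined treatment the values run between 0.42 for STY1 and, among genes with WT counts, 8.92 for CRC.

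All 4 NGATHA genes were higher in clf swn, and NGA3 and NGA4 had the lower levels in WT, 0.898 and 0.153 CPM per kb of exon in WT-ctrl beside 4.65 for NGA1 and 3.34 for NGA2. NGA1 had 14.0 to 20.0 CPM in cs-ctrl, with a median of 16.7 CPM over 6 libraries, and 8.55, 9.2, 7.36, 5.1 and 7.64 CPM in WT-ctrl (log2 fold change 1.15 ± 0.17, adjusted p = 1.45e-06). NGA2 had 8.57 to 12.9 CPM in cs-ctrl, with a median of 9.46 CPM, and 8.13, 7.07, 5.25, 5.19 and 6.79 CPM in WT-ctrl (0.63 ± 0.19, adjusted p = 0.00564). The NGA2 groups did not overlap but lay close, and its fold change fell under 0.6 with the replicate number as a block (0.57, adjusted p = 0.00339), without the cs-ctrl library of replicate 3 of the first untreated set (0.54), without the WT-ctrl library of the same set and number (0.58) and without WT-ctrl replicate 1 of the second set (0.57). NGA3 had 5.65 to 8.48 CPM in cs-ctrl, with a median of 6.9 CPM, and 1.68, 1.95, 1.36, 1.58 and 1.98 CPM in WT-ctrl (1.99 ± 0.18, adjusted p = 1.09e-10). NGA4 had 3.74 to 5.33 CPM in cs-ctrl, with a median of 4.31 CPM, and 0.335, 0.305, 0.136, 0.176 and 0.212 CPM in WT-ctrl (4.17 ± 0.28, adjusted p = 3.71e-13). For each of the 4 genes every clf swn library was above every WT library of its own condition, and for NGA1, NGA3 and NGA4 also across conditions.

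Of the STY genes, STY2 stood well apart between the genotypes in untreated tissue, whereas the STY1 libraries overlapped. STY2 had 33.7 to 39.4 CPM in cs-ctrl, with a median of 37.5 CPM, and 7.8, 8.89, 9.41, 5.71 and 7.5 CPM in WT-ctrl (log2 fold change 2.23 ± 0.12, adjusted p = 6.73e-16). STY1 had 10.3 to 27.4 CPM in cs-ctrl, with a median of 15 CPM, and 6.62, 7.31, 7.71, 9.93 and 13.2 CPM in WT-ctrl (0.83 ± 0.21, adjusted p = 0.000881). The STY1 ranges overlapped, and 1 library of cs-ctrl, replicate 3 of the first untreated set, held the highest value. Without that library the STY1 fold change was 0.59, under the threshold of the call. STY1 also overlapped in cs-M against WT-M (0.74 ± 0.28, adjusted p = 0.0297), where the call was lost without cs-M replicate 3 (0.54, adjusted p = 0.164), WT-M replicate 1 (0.59, adjusted p = 0.125) or WT-M replicate 2 (0.64, adjusted p = 0.111). In cs-W against WT-W it was called (0.86 ± 0.28, adjusted p = 0.0117), but not without cs-W replicate 2 (0.74, adjusted p = 0.0581).

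Among the bHLH genes, SPT was well detected in both genotypes, and the HEC genes were near the detection limit in WT. SPT had 46.2 to 77.8 CPM in cs-ctrl, with a median of 53.5 CPM, and 17.9, 25.2, 17.7, 22.0 and 22.0 CPM in WT-ctrl (log2 fold change 1.47 ± 0.14, adjusted p = 3.14e-10). HEC1 had 5.39 to 12 CPM in cs-ctrl, with a median of 6.75 CPM, and 0.252, 0.0609, 0.341, 0.264 and 0.495 CPM in WT-ctrl (4.77 ± 0.46, adjusted p = 3.72e-10). HEC2 had 2.24 to 4.9 CPM in cs-ctrl, with a median of 3.49 CPM, and 0, 0.0609, 0.0682, 0.0879 and 0 CPM in WT-ctrl, 311 counts in all against 3. The groups did not overlap for any of these genes, and pooled HEC2 counts were 80.1-fold higher in cs-ctrl (95% interval 27.1 to 390, counting error only; adjusted p = 4.29e-12). Within clf swn, HEC1 was highest in replicate 1 of each of the 4 treated groups, for example 10.1 CPM in cs-WA replicate 1 and 5.43 and 5.2 CPM in the others.

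CRC was among the most abundant members in clf swn and near the detection limit in WT. It had 38.6 to 52.0 CPM in cs-ctrl, with a median of 41.8 CPM, and 0.838, 1.4, 0.477, 0.264 and 0.354 CPM in WT-ctrl (log2 fold change 5.96 ± 0.22, adjusted p = 1.51e-18). The lowest of the 18 clf swn libraries had 38.6 CPM and the highest of the 17 WT libraries 1.45 CPM, and 3 WT libraries, those of WT-A, held 0 counts. In WT-A an absence of CRC counts leaves at least a 409-fold higher level in cs-A against 3 counts per library, and in cs-WA the pooled counts were 529-fold those of WT-WA (95% interval 256 to 1320, counting error only).

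Markers of flower organs and seeds were higher in clf swn in the same libraries, whereas the direction for leaf markers depended on the condition. The summed level of carpel and ovule markers was 131 to 221 CPM in clf swn and 7.09 to 39.5 CPM in WT, of petal and stamen markers 275 to 373 CPM in clf swn and 0.264 to 14.8 CPM in WT, and of seed markers 8560 to 23900 CPM in clf swn and 18.8 to 45.8 CPM in WT. Leaf markers summed to 3850 to 4660 CPM in cs-ctrl and 7080 to 9360 CPM in WT-ctrl, and to 3660 to 4430 CPM in cs-M and 5630 to 6710 CPM in WT-M. Shoot meristem markers summed to 202 to 298 CPM in clf swn and 114 to 214 CPM in WT. In untreated tissue KNAT1 averaged 135 CPM in cs-ctrl and 69.2 CPM in WT-ctrl, and STM 88.6 and 67.8 CPM without a call. WUS averaged 1.59 and 0.402 CPM, whereas CLV3 averaged 0.142 CPM in cs-ctrl and 0.32 CPM in WT-ctrl, with overlapping libraries. The part of such differences in tissue make-up in the levels of the 10 genes was not tested, and in bulk tissue a change in the number of cells that express a gene and a change in its RNA per cell cannot be told apart.

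In clf swn, 2,4-D was followed by higher levels of both STY genes, of NGA1, NGA2 and NGA3, and of CRC. Between cs-A and cs-M, 6 members were called higher, where 5.82% of all tested genes were, and 0 lower, where 6.35% were, with a median log2 change of 0.66 over the members and -0.02 over all genes. After wounding plus 2,4-D, 4 members were called higher in cs-WA than in cs-M (all genes 9.81%; median over members 0.57), namely NGA1, NGA2, STY1 and STY2, and 0 lower (all genes 8.49%). NGA3 and CRC were just under the fold threshold there (both log2 fold change 0.57, adjusted p = 0.042 and 0.0249). NGA3 was called without cs-WA replicate 2 (0.8), and CRC without cs-M replicate 3 (0.6) or cs-WA replicate 1 (0.69), and DESeq2 called both, 6 members in all. Wounding alone changed no member by this test: 0 were called between cs-W and cs-M, with log2 values between -0.25 and 0.33, 0 members at an unadjusted p under 0.05 and 0 called by DESeq2 (all genes 1.01% higher and 0.0568% lower).

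In WT the same treatments split the set. STY1, STY2, HEC1 and HEC2 rose after 2,4-D, whereas NGA2, NGA3, NGA4 and CRC fell. Between WT-A and WT-M, 4 members were called higher (all genes 19.7%) and 4 lower (all genes 20.7%). Between WT-WA and WT-M, 3 were called higher (all genes 23%), STY1, STY2 and HEC1, and 4 lower (all genes 25%), NGA2, NGA3, NGA4 and CRC. Fitted on the compared WT groups alone, both contrasts kept 2 lower calls, NGA2 and NGA3, while NGA4 and CRC, and HEC2 among the higher ones, did not pass the filter on low counts there and were not tested, and HEC1 was not called in WT-WA (1.35, adjusted p = 0.102). Wounding alone lowered NGA3, the 1 member called between WT-W and WT-M (all genes 8.31% lower and 10.8% higher). HEC2, at 0 counts in WT-W against 4 in WT-M, was called lower when WT-M replicate 3 was left out (adjusted p = 0.027). Both cs and WT responses to treatment use the mock libraries of their own genotype, and the 3 treatments within a genotype share them.

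**Figure D3:**
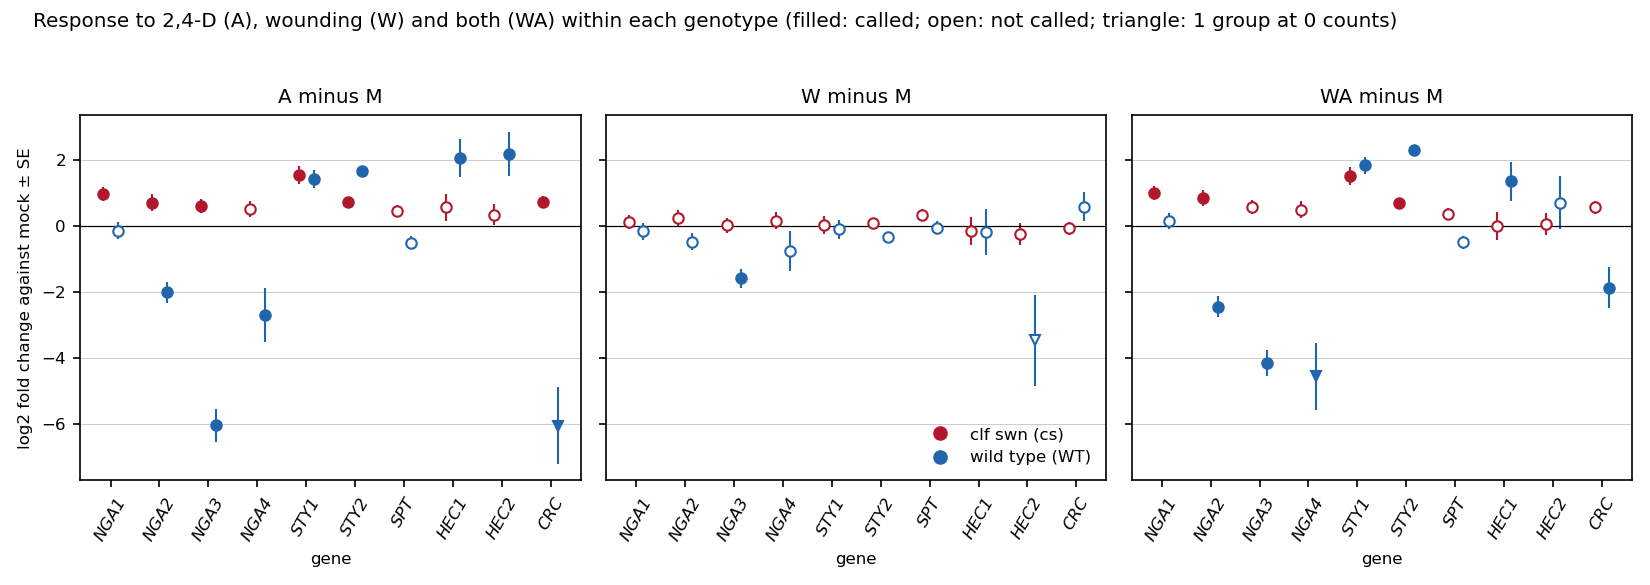
Log2 change of each gene after 2,4-D, wounding or wounding plus 2,4-D against mock, in clf swn (red) and in WT (blue), with standard errors; filled points were called, and triangles mark genes at 0 counts in a group, whose fitted value is no measured fold. After 2,4-D, NGA2, NGA3, NGA4 and CRC lie above 0 in clf swn and below -1 in WT, whereas STY1 and STY2 lie above 0.6 in both.

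NGA2 rose with 2,4-D in clf swn and fell in WT. It had 14.4, 17.9 and 22.4 CPM in cs-A and 18.4, 20.8 and 23.9 CPM in cs-WA, against 10.9, 9.78 and 12.4 CPM in cs-M. NGA2 had 0.935, 0.922 and 2.31 CPM in WT-A and 0.724, 0.978 and 1.36 CPM in WT-WA, against 5.56, 5.64 and 5.59 CPM in WT-M. The treated libraries lay above every mock library in clf swn and below every mock library in WT. In clf swn the log2 change was 0.71 ± 0.25 in cs-A (adjusted p = 0.0373) and 0.85 ± 0.25 in cs-WA (adjusted p = 0.00958). The cs-A call was lost without cs-A replicate 2 (0.74, adjusted p = 0.0641), cs-A replicate 3 (0.51, adjusted p = 0.205), cs-M replicate 1 (0.69, adjusted p = 0.106) or cs-M replicate 2 (0.64, adjusted p = 0.123). In WT it was -2.01 ± 0.31 in WT-A (adjusted p = 1.97e-06) and -2.44 ± 0.32 in WT-WA (adjusted p = 9.27e-08).

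NGA3 fell close to the detection limit in WT after 2,4-D and stayed at several CPM in clf swn. It had 9.79, 8.14 and 10.7 CPM in cs-A and 9.33, 7.47 and 12.3 CPM in cs-WA, against 6.82, 5.59 and 6.12 CPM in cs-M. It had 0, 0 and 0.0679 CPM in WT-A and 0.132, 0.13 and 0.0618 CPM in WT-WA, against 1.85, 2.1 and 2.21 CPM in WT-M. Neither genotype's treated libraries overlapped its mock libraries. Pooled WT counts were 1 in WT-A and 5 in WT-WA against 94 in WT-M, a level 90.4-fold lower in WT-A (95% interval 15.8 to 3610) and 19.3-fold lower in WT-WA (7.97 to 60.7, both counting error only). Wounding alone left 0.419, 1.07 and 0.51 CPM in WT-W, below every WT-M library (log2 fold change -1.58 ± 0.29, adjusted p = 8.04e-05), against 5.28, 7.05 and 5.77 CPM in cs-W. In clf swn the rise in cs-A was 0.61 ± 0.21 on the log2 scale (adjusted p = 0.0386), a call that was lost with the replicate block (0.6, adjusted p = 0.0339, just under the fold threshold) and without any one of cs-A replicate 1 (0.59, adjusted p = 0.0897), cs-A replicate 3 (0.5, adjusted p = 0.157), cs-M replicate 1 (0.67, adjusted p = 0.0671), cs-M replicate 2 (0.55, adjusted p = 0.125) or cs-M replicate 3 (0.6, adjusted p = 0.0851).

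NGA1 rose in clf swn and stayed at its mock level in WT within the spread of libraries. It had 29.5, 38.3 and 37.8 CPM in cs-A and 34.3, 38.8 and 39.5 CPM in cs-WA, against 20.0, 16.1 and 16.6 CPM in cs-M (log2 fold change 0.98 ± 0.22, adjusted p = 0.00143, in cs-A and 1.01 ± 0.22, adjusted p = 0.000701, in cs-WA). It had 2.95, 4.74 and 7.81 CPM in WT-A and 5.93, 5.87 and 7.11 CPM in WT-WA, against 6.1, 5.69 and 5.24 CPM in WT-M (-0.14, adjusted p = 0.659, in WT-A and 0.15, adjusted p = 0.617, in WT-WA). Every treated clf swn library was above every mock one, whereas the WT groups overlapped. NGA1 also stands in a list of transcription factor genes that the study picked on these libraries for their level in cs-WA, so its direction there is not independent evidence.

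NGA4 fell in WT with 2,4-D and was not called in clf swn, and its WT counts were too few for precise folds. It had 6.95, 4.99 and 9.06 CPM in cs-A and 6.74, 7.02 and 7.88 CPM in cs-WA, against 5.33, 3.53 and 5.6 CPM in cs-M, which overlapped cs-A and lay below cs-WA without a call (0.52 ± 0.25, adjusted p = 0.133, in cs-A; 0.74, adjusted p = 0.049, without cs-A replicate 2). WT-M held 9 counts in its 3 libraries, WT-A 1 and WT-WA 0. The level was 8.66-fold lower in WT-A than in WT-M (95% interval 1.2 to 380, counting error only; adjusted p = 0.0152), a call lost without WT-A replicate 1 (adjusted p = 0.0616) or WT-A replicate 2 (adjusted p = 0.0687). Against 3 counts per library, WT-WA was at least 1.02-fold lower than WT-M (adjusted p = 0.000793), and cs-WA was at least 37.4-fold higher than WT-WA.

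Both STY genes rose after 2,4-D in both genotypes. STY1 had 36.5, 43.4 and 35.2 CPM in cs-A and 37.8, 44.1 and 36.9 CPM in cs-WA, against 12, 10.7 and 16.5 CPM in cs-M (log2 fold change 1.54 ± 0.27, adjusted p = 9.32e-05, in cs-A and 1.52 ± 0.27, adjusted p = 5.89e-05, in cs-WA). It had 20.9, 21.9 and 22.0 CPM in WT-A and 27.7, 28.4 and 30.7 CPM in WT-WA, against 6.18, 6.85 and 11 CPM in WT-M (1.42 ± 0.27, adjusted p = 5.53e-05, in WT-A and 1.84 ± 0.27, adjusted p = 9.34e-07, in WT-WA). All treated libraries were above all mock libraries of their genotype. The STY1 libraries of cs-WA remained above those of WT-WA without a call (0.42 ± 0.25, adjusted p = 0.154; higher in 3 of 3 replicate numbers).

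The STY2 levels of the genotypes lay nearer to each other after the combined treatment than after mock. It had 65.1, 58.2 and 56.9 CPM in cs-A and 61.5, 59.4 and 62.7 CPM in cs-WA, against 42.0, 32.9 and 31.3 CPM in cs-M (log2 fold change 0.74 ± 0.14, adjusted p = 0.000308, in cs-A and 0.71 ± 0.14, adjusted p = 0.000305, in cs-WA). It had 23.4, 24.9 and 21.9 CPM in WT-A and 29.8, 45.9 and 35 CPM in WT-WA, against 8.72, 6.52 and 6.97 CPM in WT-M (1.66 ± 0.16, adjusted p = 3.02e-10, in WT-A and 2.31 ± 0.16, adjusted p = 1.72e-13, in WT-WA). All treated libraries again stood above all mock ones. The clf swn to WT difference was 0.70 ± 0.14 in cs-WA against WT-WA (adjusted p = 0.000107) and 2.3 ± 0.16 in cs-M against WT-M, and without WT-WA replicate 1 the difference in the combined treatment was 0.56, under the fold threshold. STY2 was the 1 member called between WT-WA and WT-A (0.65 ± 0.14, adjusted p = 0.00367; all genes 1.25% higher), a call lost without WT-WA replicate 2 (0.48) and on the compared groups alone (0.66, adjusted p = 0.0589), while 0 members were called between cs-WA and cs-A (log2 values -0.56 to 0.14, 0 at an unadjusted p under 0.05, 0 by DESeq2; all genes 5.11% higher and 0.488% lower).

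CRC went in opposite directions in the genotypes. It had 83.7, 81.9 and 86.9 CPM in cs-A and 64.5, 89.8 and 81.8 CPM in cs-WA, against 48.1, 50 and 52.2 CPM in cs-M (log2 fold change 0.73 ± 0.19, adjusted p = 0.00643, in cs-A). It had 0, 0 and 0 CPM in WT-A and 0.132, 0.13 and 0.185 CPM in WT-WA, against 0.618, 0.663 and 0.414 CPM in WT-M. Every treated library lay above the mock libraries in clf swn and below them in WT. Pooled WT counts were 0 in WT-A and 7 in WT-WA, against 26 in WT-M, so the level was at least 2.75-fold lower in WT-A against 3 counts per library (adjusted p = 6.17e-05) and 3.81-fold lower in WT-WA (95% interval 1.61 to 10.4, counting error only; adjusted p = 0.00969).

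SPT stayed abundant throughout, and its small opposite shifts did not pass the fold threshold. It had 70.7, 87.3 and 76.2 CPM in cs-A and 73.6, 80.8 and 77.3 CPM in cs-WA, against 44.1, 60.8 and 63.7 CPM in cs-M (log2 fold change 0.45 in cs-A, adjusted p = 0.068). It had 14.1, 13.6 and 15.1 CPM in WT-A and 12.3, 15.4 and 15.2 CPM in WT-WA, against 22.9, 19.5 and 17.8 CPM in WT-M (-0.5 ± 0.19, adjusted p = 0.0272, in WT-A and -0.49 ± 0.19, adjusted p = 0.0247, in WT-WA). The treated libraries did not overlap the mock libraries in either genotype.

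HEC1 and HEC2 gained reads in WT with 2,4-D and were not called in clf swn. HEC1 had 2.95, 1.45 and 2.65 CPM in WT-A and 1.12, 0.717 and 2.41 CPM in WT-WA, against 0.849, 0.663 and 0.138 CPM in WT-M. WT-A lay above WT-M (log2 fold change 2.06 ± 0.57, adjusted p = 0.00258), whereas WT-WA overlapped it (1.36 ± 0.59, adjusted p = 0.0449). The WT-WA call was lost without WT-M replicate 2 (1.56, adjusted p = 0.0624), WT-M replicate 3 (0.91, adjusted p = 0.199) or WT-WA replicate 3 (0.72, adjusted p = 0.356). HEC2 counts were 19 in WT-A against 4 in WT-M, 4.94-fold higher (95% interval 1.64 to 20.0, counting error only; adjusted p = 0.0065), and 7 in WT-WA (log2 fold change 0.71, adjusted p = 0.454). In clf swn HEC1 had 13, 9.86 and 6.59 CPM in cs-A, against 8.6, 7.07 and 3.76 CPM in cs-M (0.57, adjusted p = 0.349), and HEC2 had 4.86, 4.1 and 4.27 CPM in cs-A, against 3.77, 4.68 and 1.84 CPM in cs-M (0.34, adjusted p = 0.498).

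With wounded tissue as the baseline, STY1 and STY2 again rose with 2,4-D in both genotypes. Between cs-WA and cs-W, 4 members were called higher (all genes 6.55%): NGA1 (log2 fold change 0.9 ± 0.22, adjusted p = 0.00286), STY1 (1.49 ± 0.26, adjusted p = 0.000101), STY2 (0.61 ± 0.14, adjusted p = 0.0018) and CRC (0.64 ± 0.19, adjusted p = 0.0163), and 0 lower (all genes 7.12%). STY2 dropped under the fold threshold without cs-W replicate 1 (0.52) or cs-WA replicate 3 (0.59), and CRC lost its call without cs-W replicate 2 (adjusted p = 0.0532), cs-W replicate 3 (0.0815), cs-WA replicate 2 (0.0543) or cs-WA replicate 3 (0.053). Between WT-WA and WT-W, 4 were called higher (all genes 14.8%), STY1, STY2, HEC1 and HEC2, and 4 lower (all genes 21.9%), NGA2, NGA3, NGA4 and CRC, the NGA4 call resting on 0 counts in WT-WA against 5 in WT-W and the HEC2 call on 7 against 0. NGA4 held at most 3 counts in each of these libraries, so no fold is given. HEC2 in WT-WA was 0.719-fold the level of 3 counts per library in WT-W, so its rise was not measured. The HEC1 call (1.54, adjusted p = 0.0329) was lost without WT-W replicate 2 (adjusted p = 0.123), WT-W replicate 3 (adjusted p = 0.109) or WT-WA replicate 3 (adjusted p = 0.278), and the NGA4 call without WT-W replicate 2 (adjusted p = 0.0837). On WT-WA and WT-W alone, STY1 and STY2 were called higher and NGA2 lower, HEC1 was not called (1.54, adjusted p = 0.0714), and NGA3, NGA4, HEC2 and CRC did not pass the filter on low counts. In cs-WA against cs-W, NGA2 was also called without cs-W replicate 3 (0.79) and NGA3 without cs-WA replicate 2 (0.79). Mock treatment itself moved 0 members against untreated tissue in either genotype, with log2 values of -0.27 to 0.21 in clf swn and -0.44 to 0.94 in WT, 0 at an unadjusted p under 0.05 and 0 by DESeq2 (all genes 0.881% higher and 0.114% lower in clf swn, 0.805% higher and 1.16% lower in WT).

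Sums of carpel, leaf and root markers moved with treatment in the same libraries, with single genes of a list going different ways. Carpel and ovule markers summed to 196 to 221 CPM in cs-A and 189 to 206 CPM in cs-WA, against 148 to 185 CPM in cs-M, and to 32.5 to 39.5 CPM in WT-A, with STK at 0, and 23.6 to 31.3 CPM in WT-WA, against 8.9 to 14 CPM in WT-M. Most of these rises lay in SHP1, which averaged 108 CPM in cs-A against 45.0 in cs-M, and 35.7 in WT-A against 10.8 in WT-M. AG did not rise, at 80.8 CPM in cs-A against 90.9 in cs-M, and 0.159 in WT-A against 0.648 in WT-M. SHP2 and STK averaged 8.33 and 14.6 CPM in cs-A against 9.89 and 16.4 in cs-M, whereas STK reached 21.8 CPM in cs-WA. The summed level of leaf markers was 3050 to 4660 CPM in cs-A and 2500 to 3440 CPM in cs-WA, against 3660 to 4430 CPM in cs-M. In WT it was 623 to 889 CPM in WT-A and 437 to 573 CPM in WT-WA, against 5630 to 6710 CPM in WT-M. Root tip markers summed to 95.6 to 114 CPM in cs-WA against 60.5 to 62.7 CPM in cs-M, and to 28.4 to 31.7 CPM in WT-W and 118 to 160 CPM in WT-WA against 49.6 to 62.8 CPM in WT-M. The lower sum in WT-W followed SCR, which averaged 25.9 CPM there against 53.0 CPM in WT-M. PLT1 and RCH1 were higher, at 0.554 and 1.25 CPM in WT-W against 0 and 0.0442 CPM in WT-M, and WOX5 averaged 2.31 against 2.68 CPM. Their part in the treatment responses was not tested.

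Whether a response differed between the genotypes was tested directly, as the change in clf swn minus the change in WT. After 2,4-D, 6 members responded more upward in clf swn than in WT (adjusted p under 0.05; all genes 23.9%), namely NGA1, NGA2, NGA3, NGA4, SPT and CRC, and 2 less, STY2 and HEC2 (all genes 20.8%). The difference was 1.12 ± 0.33 for NGA1 (adjusted p = 0.00693), 2.71 ± 0.39 for NGA2 (adjusted p = 2.14e-06), 0.95 ± 0.26 for SPT (adjusted p = 0.00415) and -0.92 ± 0.21 for STY2 (adjusted p = 0.000757). For HEC2 it was -1.86 ± 0.75 (adjusted p = 0.0451), and the call was lost with the replicate block (adjusted p = 0.0524) and without any one of 8 of the 12 libraries compared: cs-A replicates 2 and 3, cs-M replicates 1 and 2, WT-A replicates 1 and 2, and WT-M replicates 2 and 3 (adjusted p 0.0588 to 0.154). STY1 (0.11, adjusted p = 0.848) and HEC1 (-1.49, adjusted p = 0.0867) did not pass, HEC1 passing without cs-M replicate 3 (-1.76, adjusted p = 0.0481).

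After wounding plus 2,4-D the same 6 members were called upward (all genes 24.4%) and STY2 downward (all genes 20.8%). The difference was 3.29 ± 0.4 for NGA2 (adjusted p = 1.22e-07), 4.73 ± 0.45 for NGA3 (adjusted p = 1.45e-09), 2.44 ± 0.65 for CRC (adjusted p = 0.00293), 0.87 ± 0.26 for SPT (adjusted p = 0.00776) and -1.6 ± 0.21 for STY2 (adjusted p = 3.74e-07). For NGA1 it was 0.87 ± 0.33 (adjusted p = 0.032), lost without any one of cs-M replicates 2 and 3, cs-WA replicate 3, WT-M replicates 1 and 2 or WT-WA replicates 1 and 2 (adjusted p 0.0567 to 0.0673). Under wounding alone NGA3 was the 1 member called (1.6 ± 0.36, adjusted p = 0.00352; all genes 8.67%).

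**Figure D4:**
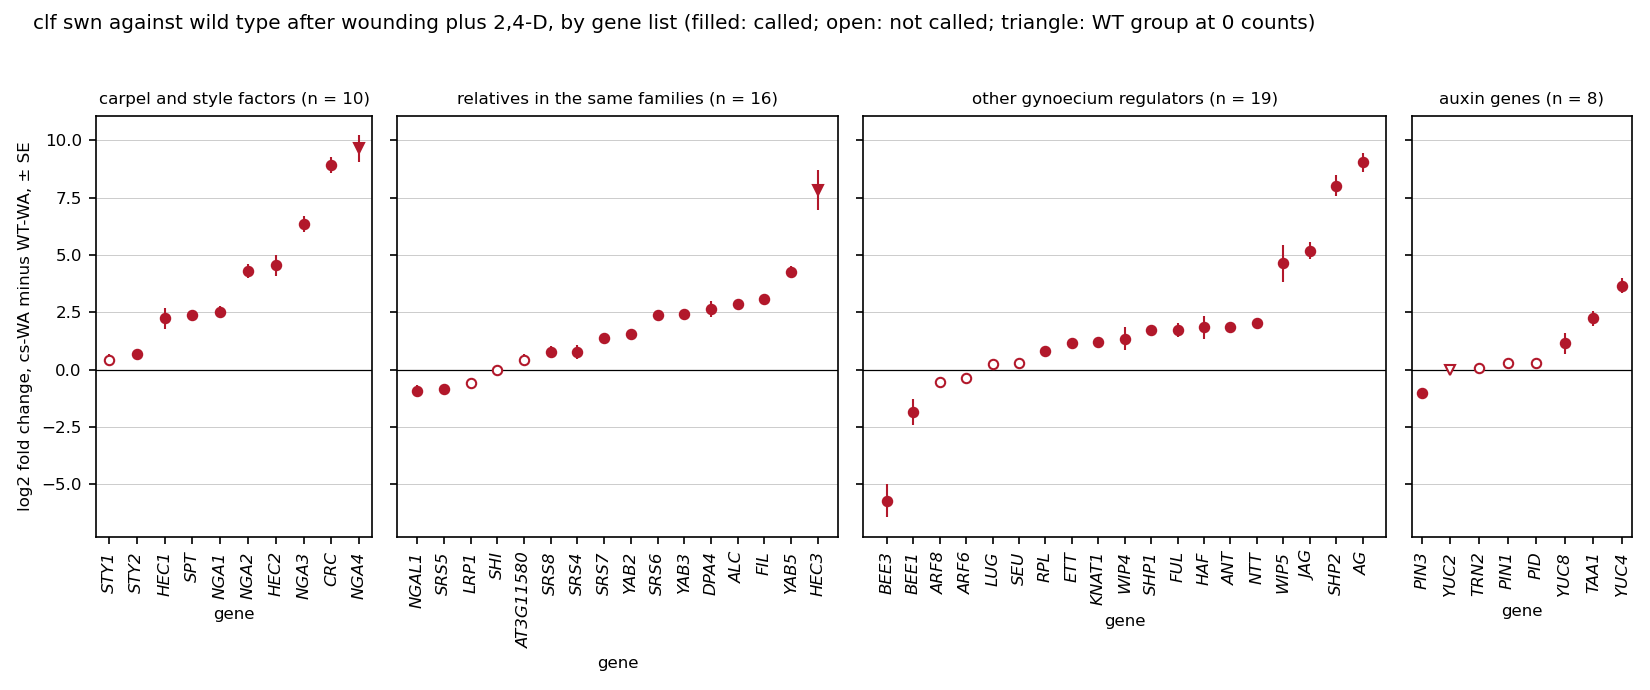
Log2 difference between cs-WA and WT-WA of the 10 members and of the genes of 3 lists (other members of their families, other gynoecium regulators, auxin genes), with standard errors; filled points were called, and triangles mark genes at 0 counts in WT-WA. The members have a median of 3.42, the family relatives 1.47, the gynoecium regulators 1.35 and the auxin genes 0.29.

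The order of levels among the genes also differed between groups, compared as CPM per kb of exon. In cs-WA, CRC was highest at 69.6 ± 11.4 CPM per kb (SD, n = 3), followed by SPT at 46.9 ± 2.18, STY2 at 34.8 ± 0.948 and NGA1 at 23.0 ± 1.73 CPM per kb, and NGA1 and STY1 overlapped. Below NGA2, HEC1 overlapped NGA3 and NGA3 overlapped NGA4, and HEC2 stood apart as the lowest at 2.67 CPM per kb. In WT-WA the order began with STY2 at 21.0 CPM per kb, STY1 at 15.5 and SPT at 8.68 CPM per kb, while CRC stood at 0.132 CPM per kb. In cs-ctrl, CRC (38.7 CPM per kb) and SPT (35.2) overlapped at the top, whereas in WT-ctrl SPT led alone (12.7 CPM per kb) and STY1, NGA1, STY2 and NGA2 overlapped below it, between 4.8 and 3.34 CPM per kb.

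The members fell into like patterns over the 10 group means of log2(CPM + 1), a description over points that share libraries and the genotype split. NGA4 and CRC were most alike (Pearson r = 0.997), and SPT lay near both (0.993 with NGA4 and 0.992 with CRC). HEC1 and HEC2 had r = 0.976, NGA2 and NGA3 0.972, and STY1 and STY2 0.851. The lowest correlations among members were those of STY1, 0.176 with NGA2, 0.264 with NGA3 and 0.371 with SPT. Among all 19293 genes with a mean of at least 1 CPM, the closest to STY2 was SRS4 (r = 0.99), a further SHI/STY family gene. The closest were TBL1 and BGLU19 to NGA1 (both 0.986), PAR1 and AT4G31270 to NGA2 (both 0.987), AT1G23000 (0.995) and AT2G42290 (0.993) to NGA3, CRC and AT1G66290 to NGA4 (both 0.997), and AT2G30680 (0.998) and NGA4 (0.997) to CRC. They were AT4G00200 (0.987) and AT4G24420 (0.982) for STY1, AT5G24318 (0.989) after SRS4 for STY2, AT2G30350 and AT5G05060 (both 0.995) for SPT, AT3G59190 (0.992) and NADP-ME1 (0.987) for HEC1, and AT4G02690 (0.998) and AT3G30300 (0.997) for HEC2.

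Other genes of the same families moved in both directions. Of 19 relatives (SHI/STY, bHLH, YABBY and NGATHA-like genes), 16 were tested, and 8 were called higher and 1 lower in cs-ctrl than in WT-ctrl (all genes 13.6% and 20.4%), with a median log2 difference of 0.54. In cs-WA against WT-WA, 11 of the 16 were called higher and 2 lower (all genes 23.4% and 19.8%; median 1.47). ALC, a paralog of SPT, averaged 82.7 ± 7.56 CPM in cs-WA, against 11.1 ± 1.93 CPM in WT-WA (SD, n = 3 each; log2 fold change 2.86 ± 0.18, adjusted p = 1.09e-13). HEC3, the close relative of HEC1 and HEC2, averaged 2.02 ± 0.396 CPM in cs-WA and had 0 counts in every WT-WA library. The YABBY genes FIL, YAB3 and YAB5, which mark the lower side of leaves and floral organs, averaged 55.8 ± 4.02, 29.2 ± 4.91 and 27.9 ± 4.52 CPM in cs-WA and 6.4 ± 0.739, 5.32 ± 1.86 and 1.39 ± 0.302 CPM in WT-WA. In untreated tissue none of the 3 was higher in clf swn. YAB5 was called lower (2.69 ± 0.779 CPM in cs-ctrl, n = 6, and 12.1 ± 1.07 CPM in WT-ctrl, n = 5). FIL averaged 59.2 ± 6.04 and 71.4 ± 3.54 CPM there and YAB3 42.8 ± 2.46 and 61.9 ± 4.28 CPM, without a call. After mock, YAB3 was called lower in clf swn (26.5 ± 2.9 CPM in cs-M and 65.0 ± 2.31 CPM in WT-M). FIL averaged 58.1 ± 4.25 CPM in WT-M, so the low WT-WA levels of FIL and YAB3 followed falls from WT-M.

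In the SHI/STY family, LRP1, known from lateral root primordia, rose with 2,4-D as STY1 and STY2 did. It averaged 132 ± 6.02 CPM in cs-A against 50.8 ± 8.46 CPM in cs-M, and 187 ± 9.63 CPM in WT-A against 20.9 ± 1.24 CPM in WT-M (SD, n = 3 each; log2 fold change 1.36 in clf swn and 3.15 in WT). SRS7 averaged 65.7 ± 6.79 CPM in cs-A against 41.4 ± 0.293 CPM in cs-M, and 18.5 ± 2.83 CPM in WT-A against 5.3 ± 0.695 CPM in WT-M. Of the 16 relatives tested, 6 were called higher and 6 lower in WT-A against WT-M (all genes 19.7% and 20.7%), the higher ones being LRP1, SHI, SRS4, SRS5, SRS7 and AT3G11580 and the lower ones FIL, YAB2, YAB3, YAB5, SRS6 and DPA4. In cs-A against cs-M 4 were called higher and 2 lower (all genes 5.82% and 6.35%).

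Among 19 other gynoecium regulators, 10 were called higher and 3 lower in cs-ctrl than in WT-ctrl (all genes 13.6% and 20.4%; median 0.63), and 13 higher and 2 lower in cs-WA than in WT-WA (all genes 23.4% and 19.8%; median 1.35). AG, SHP1 and SHP2 are also among the carpel markers above. AG, which specifies carpels and stamens, averaged 74.1 ± 9.34 CPM in cs-WA, against 0.128 ± 0.131 CPM in WT-WA (log2 fold change 9.04 ± 0.42). SHP1, which acts with SHP2 in carpel and fruit valve margin tissue, averaged 96.1 ± 2.85 CPM in cs-WA, against 28.2 ± 4.28 CPM in WT-WA, and rose with 2,4-D in both genotypes. Like NGA1, SHP1 stands in the list that the study picked on these libraries, so its direction in cs-WA is not independent evidence. NTT, a transmitting tract factor, averaged 16.7 ± 1.85 CPM in cs-WA, against 4.01 ± 0.361 CPM in WT-WA. The bHLH gene BEE3 went the other way, with 0.272 ± 0.239 CPM in cs-WA, against 14.9 ± 7.98 CPM in WT-WA.

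Of 8 auxin genes that lie downstream of the NGATHA, STY or bHLH members in the gynoecium, 2 were called higher and 3 lower in cs-ctrl than in WT-ctrl (all genes 13.6% and 20.4%; median 0.13), and 3 higher and 1 lower in cs-WA than in WT-WA (all genes 23.4% and 19.8%; median 0.29). The lower ones were PIN3, YUC2 and YUC8 in cs-ctrl and PIN3 in cs-WA. PIN3 averaged 16.7 ± 1.53 CPM in cs-ctrl against 123 ± 21.1 CPM in WT-ctrl, and 94.9 ± 6.95 CPM in cs-WA against 189 ± 26.5 CPM in WT-WA. YUC4, an auxin synthesis gene that STY1 activates, averaged 7.35 ± 0.765 CPM in cs-WA, against 0.56 ± 0.176 CPM in WT-WA (log2 fold change 3.66 ± 0.32, adjusted p = 8.55e-11). Unlike STY1, YUC4 fell with 2,4-D in both genotypes, averaging 8.01 ± 1.06 CPM in cs-A against 15.8 ± 1.79 CPM in cs-M, and 0.732 ± 0.0566 CPM in WT-A against 6.13 ± 3.0 CPM in WT-M. TAA1, which acts one step before the YUC enzymes, averaged 6.8 ± 1.61 CPM in cs-A against 15.9 ± 6.66 CPM in cs-M, and 1.22 ± 0.385 CPM in WT-A against 10.3 ± 1.1 CPM in WT-M.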

How the data were processed

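The authors trimmed the reads with Trimmomatic 0.32, aligned them to TAIR10 with TopHat2 2.0.10 keeping unique alignments, and deposited raw counts per gene made with HTSeq for 35 libraries (TruSeq RNA v2 kit; strandedness of counting not given in the sources used here). Columns named C0 and C1 were read as untreated and C2 as mock. In the study's read statistics the totals of the second wounded libraries of both genotypes are exchanged, and the names in the count table were followed. All 35 libraries entered 1 edgeR 4.0.16 model of 10 groups (R 4.3.3, limma 3.58.1) after filterByExpr, with TMM scaling, quasi-likelihood tests and Benjamini-Hochberg adjustment. Standard errors were the log2 fold change divided by the root of F. CPM used total counts, and log2 ratios within replicate numbers used CPM + 0.1. The test was checked on simulated data. Each replicate was prepared at its own time and its libraries shared 1 sequencing lane, so the replicate number marks a batch that every 55 h group spans. Deviations of same-numbered samples correlated with a median r of 0.046 (182 pairs), against -0.026 for different numbers (364 pairs). Untreated libraries of sets C0 and C1 share numbers and may not be independent. The alternatives were DESeq2 1.42.0, other scalings and filters, a replicate block, untreated set C0 without C1, and the compared groups alone. Calls by the adjusted p alone and fits leaving out each library were also made. The members and gene lists were chosen with earlier results of these data known. Named genes were all 10 members, CLF and SWN, list genes past the test of the contrast described, and the 2 genes most correlated with each member, beside markers of cell types given as levels. Intervals cover counting error only.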

Additional observations from a re-analysis of the deposited data

Results flagged for a closer look

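STY1 stood at 27.4 CPM in replicate 3 of the first untreated set of cs-ctrl, against 10.3 to 16.5 CPM in the 5 other cs-ctrl libraries, a gap of 0.64 of the range. This was the 1 value set apart among 20 groups of 5 or 6 libraries examined, of which chance sets apart about 1 in 20.

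The response to 2,4-D differed between clf swn and WT (change in clf swn minus change in WT, log2 scale, edgeR's quasi-likelihood test) by 1.12 ± 0.33 for NGA1 (adjusted p = 0.00693), 2.71 ± 0.39 for NGA2 (2.14e-06), 6.64 ± 0.56 for NGA3 (2.31e-10), 3.24 ± 0.85 for NGA4 (0.00584), 0.95 ± 0.26 for SPT (0.00415), 6.78 ± 1.13 for CRC (1.99e-05), -0.92 ± 0.21 for STY2 (0.000757) and -1.86 ± 0.75 for HEC2 (0.0451). WT-A held 1, 1 and 0 counts of NGA3, NGA4 and CRC, so the fitted sizes for these genes depend on the prior count. The response to wounding alone differed for NGA3, by 1.6 ± 0.36 (0.00352).

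For wounding plus 2,4-D the differences were 0.87 ± 0.33 for NGA1 (adjusted p = 0.032), 3.29 ± 0.4 for NGA2 (1.22e-07), 4.73 ± 0.45 for NGA3 (1.45e-09), 5.07 ± 1.04 for NGA4 (0.000361), 0.87 ± 0.26 for SPT (0.00776), 2.44 ± 0.65 for CRC (0.00293) and -1.6 ± 0.21 for STY2 (3.74e-07). WT-WA held 0 counts of NGA4, whose fitted size likewise depends on the prior count.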

How the results depend on the processing

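No result changed direction under any alternative. The values counted next are member contrasts that were called or had an unadjusted p under 0.05, and STY1 in cs-WA against WT-WA. Leaving out 1 library at a time left the status, called or not called, as it was in 827 values. It gained a call in 8 and lost it in 49. The other alternatives left the status as it was in 744, gained a call in 14 and lost it in 9. Members that a filter left untested are not counted in these numbers. Counts of members called ran from 8 to 10 higher in cs-ctrl against WT-ctrl when 1 library was left out, 4 to 6 in cs-A against cs-M, 2 to 4 in cs-WA against cs-W, 0 to 1 in WT-WA against WT-A, 1 to 2 lower in WT-W against WT-M, and 1 to 3 responding less upward to 2,4-D in clf swn. DESeq2 called 2 members higher in WT-WA than in WT-A, where CRC (3.58, adjusted p = 0.0495) joined STY2. HEC2 was lost from the 2 members responding less upward to 2,4-D in clf swn, leaving 1, with DESeq2, with no filter, with the replicate number as a block and with the compared groups alone. The block also moved NGA2 (cs-ctrl against WT-ctrl) and NGA3 (cs-A against cs-M) under the fold threshold, brought NGA2 over it in cs-WA against cs-W (0.63), and changed no other call. With the compared groups alone, 2 members were lower in WT-A and 2 in WT-WA than in WT-M, 0 were higher in WT-WA than in WT-A, and 2 were higher and 1 lower in WT-WA than in WT-W. NGA4, CRC and HEC2, and NGA3 in the last contrast, did not pass the filter in those fits, and HEC1 (WT-WA against WT-M and WT-W) and STY2 (WT-WA against WT-A) missed the adjusted p. A filter of at least 10 reads in every library left 5 members tested (NGA1, NGA2, STY1, STY2 and SPT), by its construction without the genes near 0 in WT. Then 5 were higher in each of cs-ctrl, cs-M, cs-A and cs-W and 4 in cs-WA. In WT-A 2 were higher and 1 lower than in WT-M, in WT-WA 1 was lower than in WT-M, and 2 were higher and 1 lower than in WT-W, with 0 lower in WT-W than in WT-M. Of the responses, 3 were more and 1 less upward in clf swn after 2,4-D, 3 more after the combined treatment and 0 after wounding. The cause of the other changes was not tested. Depth limits NGA3, NGA4, HEC1, HEC2 and CRC in WT, where groups held 0 to 118 counts.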
